A study of Mus musculus with 8 samples.

Results

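The genes described here are 9 genes of osteoclast differentiation and cell fusion, Dcstamp, Ocstamp, Acp5, Atp6v0d2, Nfatc1, Tnfrsf11a, Tnfsf11, Oscar and Calcr, taken by symbol from a table of 24391 genes in which all 9 were found. Dcstamp was chosen by its fold change between antibody and IgG animals in these libraries, and the other 8 for what they are known to do, with results of the same comparison in view. Their differences between the groups are therefore given as a description, with intervals and no p-value. The samples were atherosclerotic lesions of the brachiocephalic artery from C57BL/6 mice on a Western diet for 18 weeks, sequenced as bulk RNA. The antibody group was 4 animals injected with an antibody against interleukin-1β (IL-1β), and the control group was 4 animals injected with immunoglobulin G (IgG). Both groups carried a lineage tracer for smooth muscle cells and are called wild type in the design text. The labels name no promoter for the tracer, no lipid-raising allele and no dose or length of injection.

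Osteoclasts are giant cells that dissolve bone and arise when cells of the monocyte and macrophage lineage fuse. The ligand RANKL, encoded by Tnfsf11, binds its receptor RANK, encoded by Tnfrsf11a, and with a calcium signal from immunoreceptors such as OSCAR this switches on the transcription factor NFATc1, which drives the genes of fusion and of acid and enzyme secretion. Macrophages also fuse into foreign-body giant cells, and plaque macrophages can carry several of the same genes, so these transcripts mark a programme and not by themselves an osteoclast. In bulk tissue, fewer cells of a type and less RNA per cell cannot be told apart.

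The libraries held 20137336 to 29453014 reads assigned to a gene, and levels are given as CPM, a gene's count scaled to a common library total after TMM normalisation, so that 1 count was worth 0.0337 to 0.0488 CPM. All 11 macrophage, all 7 smooth muscle and all 6 endothelial markers looked up were detected, with summed levels of 2360 to 3320, 1450 to 3970 and 1490 to 1720 CPM in antibody animals and of 2120 to 4630, 2240 to 2960 and 1460 to 1820 CPM in IgG animals. Adipocyte markers were also present, at 1600 to 4950 CPM in antibody animals and 1800 to 2420 CPM in IgG animals. The library of IgG animal 1 stood apart in genes of the thymic epithelium, with 116 counts of Psmb11, 43 of Aire and 17 of Foxn1, against at most 4 counts of each in any other library. Without that animal the log2 fold changes of the genes described here kept their sign, at -2.97 for Dcstamp, -1.22 for Tnfsf11, -0.38 for Atp6v0d2, -0.29 for Acp5, -0.26 for Ocstamp, -0.22 for Tnfrsf11a and -0.19 for Nfatc1. Of the 15980 genes with enough counts for a fit, 0 passed an adjusted p of 0.05 between antibody and IgG animals (edgeR quasi-likelihood test, Benjamini-Hochberg), in either direction (0% called lower and 0% called higher), and 509 had an unadjusted p under 0.05.

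Promoter sequences from 250 bases before to 50 bases after a gene's start were found in RefSeq (GRCm38.p6, a later build than the mm9 build of the counts) for 5 of the 9 genes: Tnfsf11, Tnfrsf11a, Oscar, Acp5 and Calcr. Those of 4 genes are shown because they belong to the ligand, the receptor, the co-receptor and the best known enzyme marker of the programme. Transcription factors of the programme (AP-1, NFATc1, PU.1 and MITF) also have short binding motifs that can be looked for there. Capitals mark the motifs found, on either strand, out of TGANTCA (AP-1), GGAAA (NFAT core), GAGGAA (PU.1 core) and CACGTG (the E-box that MITF binds). A GAGGAA followed by A also holds a GGAAA.
Tnfsf11, chr14:78307994-78308293, minus strand: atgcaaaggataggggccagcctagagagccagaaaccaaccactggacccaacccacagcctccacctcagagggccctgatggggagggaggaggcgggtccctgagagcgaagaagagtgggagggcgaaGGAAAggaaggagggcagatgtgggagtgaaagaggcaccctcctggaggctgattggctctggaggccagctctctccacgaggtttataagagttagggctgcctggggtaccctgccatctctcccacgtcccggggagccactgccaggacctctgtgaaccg
Tnfrsf11a, chr1:105780473-105780772, plus strand: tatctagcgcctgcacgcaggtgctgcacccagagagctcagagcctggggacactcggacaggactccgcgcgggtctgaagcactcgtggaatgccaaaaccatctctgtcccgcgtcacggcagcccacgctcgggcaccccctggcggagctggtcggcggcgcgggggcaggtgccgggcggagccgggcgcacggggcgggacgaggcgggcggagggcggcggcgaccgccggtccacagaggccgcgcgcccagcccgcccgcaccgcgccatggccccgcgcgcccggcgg
Oscar, chr7:3616108-3616407, minus strand: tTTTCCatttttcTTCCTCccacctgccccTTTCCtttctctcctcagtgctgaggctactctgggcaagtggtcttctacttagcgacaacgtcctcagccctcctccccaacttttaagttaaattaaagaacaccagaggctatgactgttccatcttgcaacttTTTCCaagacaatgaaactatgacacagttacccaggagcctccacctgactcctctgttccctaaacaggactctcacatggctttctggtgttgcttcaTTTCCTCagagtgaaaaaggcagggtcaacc
Acp5, chr9:22130549-22130848, minus strand, the most downstream of 3 listed starts: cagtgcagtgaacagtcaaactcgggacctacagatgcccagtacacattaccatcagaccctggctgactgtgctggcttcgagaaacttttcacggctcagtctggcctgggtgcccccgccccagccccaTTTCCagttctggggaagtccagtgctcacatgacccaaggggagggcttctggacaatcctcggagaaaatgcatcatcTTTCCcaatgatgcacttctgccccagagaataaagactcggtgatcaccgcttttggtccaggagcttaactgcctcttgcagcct

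The Oscar window held 4 GGAAA and 2 GAGGAA, the Acp5 window shown 2 GGAAA, the Tnfsf11 window 1 GGAAA and the Tnfrsf11a window none of the motifs. The other 2 Acp5 windows held 1 GGAAA each, and of the 2 Calcr windows 1 did. No TGANTCA and no CACGTG lay in any of the 8 windows. Over all 32851 windows of the same 300 bases, 61.3% held GGAAA, 28.3% GAGGAA, 7.8% TGANTCA and 7.2% CACGTG, so a GGAAA in a window is common.

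Of the 9 genes, 7 had enough counts for a fit and Oscar and Calcr did not. All 7 fitted log2 fold changes lay below 0, where 52.3% of all genes tested did, with a median of -0.16 against -0.01 over all genes tested. In 1 of the 7, Dcstamp, the 4 antibody values lay below all 4 IgG values, and among all genes tested 1.25% had this pattern. In 0 of the 7 did they lie above, against 0.713% of all genes tested. Since the comparison itself served to choose Dcstamp, neither count is evidence about the set. Without IgG animal 3, or with a macrophage score as a covariate, 5 of the 7 lay below 0, because Acp5 and Atp6v0d2 then lay above it.

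**Figure D1:**
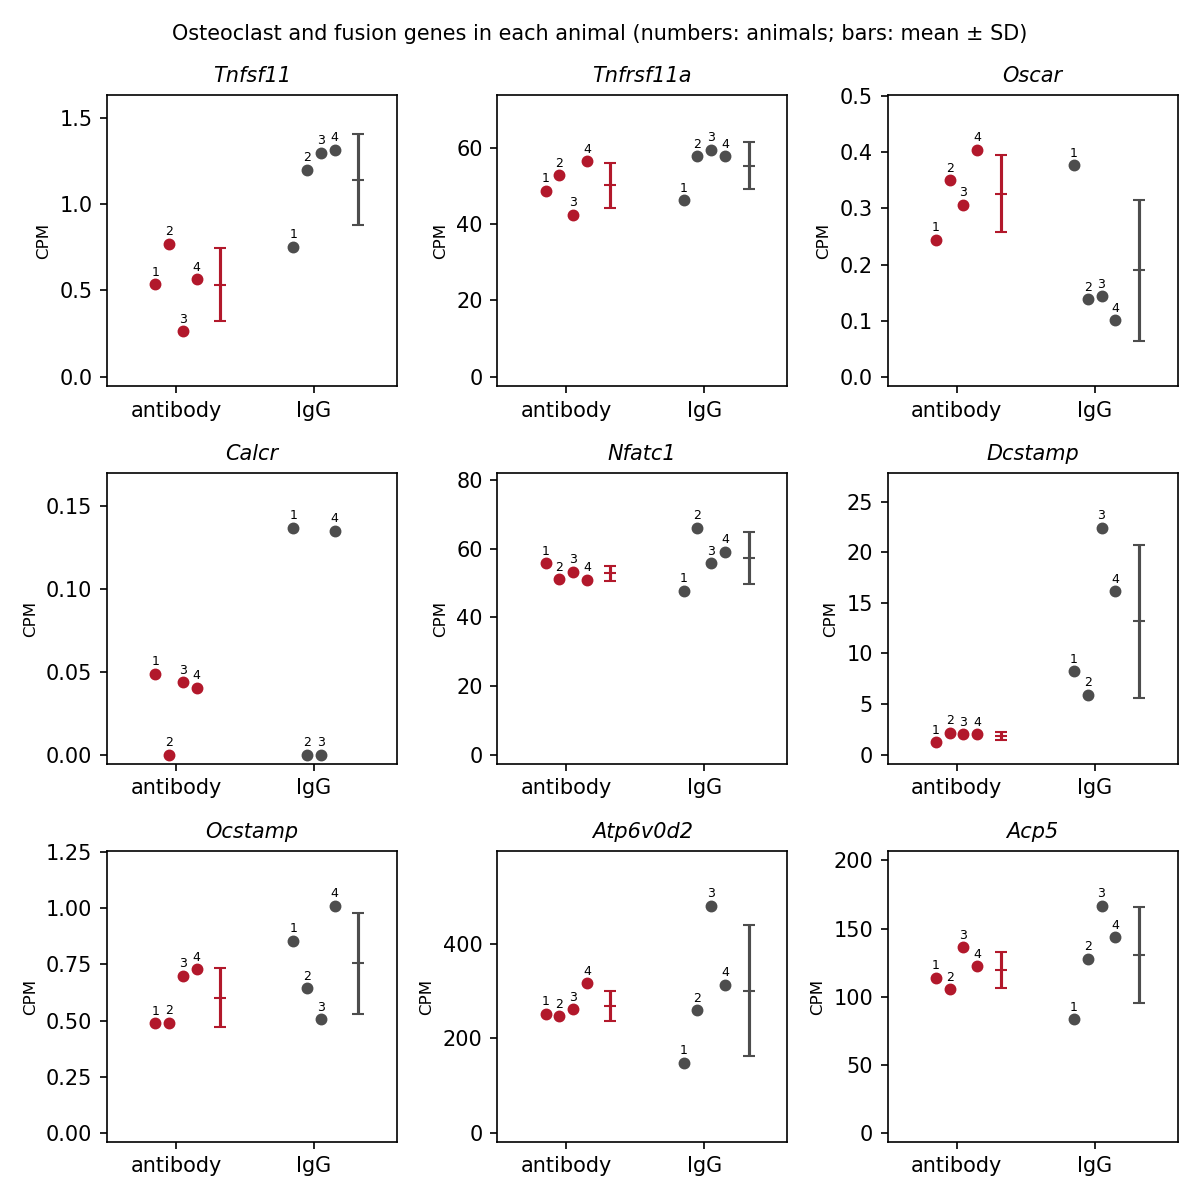
CPM (vertical axes, linear, own scale per gene) of the 9 genes in each of 4 antibody and 4 IgG animals. Points carry the animal's number and bars give mean ± SD, left out for Calcr, which has at most 4 counts per library. Dcstamp separates the groups, with antibody animals between 1.27 and 2.17 CPM and IgG animals between 5.95 and 22.4 CPM. The other 8 genes overlap.

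Beginning with the ligand, Tnfsf11 (chromosome 14, 78677253 to 78707850, minus strand, mm9) had 0.537, 0.771, 0.263 and 0.567 CPM in antibody animals 1 to 4, from 11, 22, 6 and 14 counts. In IgG animals 1 to 4 it had 0.753, 1.20, 1.30 and 1.32 CPM, from 22, 26, 36 and 39 counts. The groups overlapped by a single pair, antibody animal 2 lying just above IgG animal 1. The fitted log2 fold change was -1.07 ± 0.36 (SE, 95% interval -1.88 to -0.27), and the difference rests on 53 counts in all antibody libraries against 123 in all IgG libraries. Tnfsf11 passed the count filter through the IgG animals, so its interval is a description only. The decoy receptor of RANKL, osteoprotegerin (Tnfrsf11b), was far more abundant, at 80.8 ± 21.7 CPM in antibody animals and 108 ± 57.3 CPM in IgG animals (SD, n = 4 each). Tnfsf11 amounted to 0.667, 0.800, 0.522 and 0.589% of the Tnfrsf11b CPM in antibody animals 1 to 4 and to 1.04, 1.99, 0.694 and 1.18% in IgG animals 1 to 4, a ratio of read counts not corrected for length that overlapped between the groups. Osteoblast-lineage cells, stromal cells, activated T cells and B cells are known sources of RANKL. Of the fitted T cell markers, 6 of 7 had a log2 fold change below 0. Their summed levels were 14.8 to 46.2 CPM in antibody animals and 25.6 to 52.6 CPM in IgG animals. The 52.6 CPM was IgG animal 1, the library that held thymic epithelial genes. IgG animals 2 to 4 had 25.6, 32 and 32.1 CPM, inside the antibody range. All 6 B cell markers lay below 0, with a median of -0.94. Their sums were 4.59 to 7.73 CPM in antibody animals and 5.59 to 19.8 CPM in IgG animals. IgG animal 1 was again the highest, with 12.3, 5.59 and 14 CPM in IgG animals 2 to 4. The part of IgG animal 1 in these signs was not tested. None of the T and B cell markers passed the adjusted threshold. In 1, the B cell receptor chain Cd79b (-1.06 ± 0.24), the groups did not overlap. Among all genes tested 1.25% were lower without overlap, and Cd79b was named after its values were seen. Of the 6 fitted osteoblast and osteocyte markers 1 lay below 0, with sums of 47.8 to 99.3 and 52.7 to 78.4 CPM in antibody and IgG animals. That was the bone matrix gene Ibsp (-0.83 ± 0.27), with 413 counts in all antibody libraries and 814 in all IgG libraries. The highest sum, 99.3 CPM, was antibody animal 2, where Sost had 46.3 CPM and Phex 21.3 CPM. The cells that carried these 2 genes were not tested. The osteocalcin genes were near 0, with 5 counts of Bglap in all antibody libraries against 4 in all IgG libraries and 0 counts of Bglap2 against 4. In the thymus and lymphoid stroma list, with sums of 2.59 to 3.72 CPM in antibody animals and 2.63 to 10.8 CPM in IgG animals, the sum was highest in IgG animals 4 and 1. In IgG animal 4 most of it was the B cell chemokine Cxcl13, and Ccl21a had no count in any library. The part of these cells in the Tnfsf11 values was not tested.

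Tnfrsf11a (chromosome 1, 107677300 to 107744558, plus strand), the RANK receptor on the fusing precursor, had 48.7, 52.7, 42.5 and 56.5 CPM in antibody animals 1 to 4 and 46.2, 57.8, 59.5 and 57.7 CPM in IgG animals 1 to 4. The groups overlapped, and IgG animal 1 stood below the other 3 of its group. The log2 fold change was -0.14 ± 0.12 (95% interval -0.42 to 0.14). Oscar (chromosome 7, 3561416 to 3567759, minus strand) encodes a collagen-binding receptor that adds the calcium signal, and it had 5, 10, 7 and 10 counts in antibody animals 1 to 4 and 11, 3, 4 and 3 counts in IgG animals 1 to 4. Those are 0.326 ± 0.0681 CPM in antibody animals and 0.190 ± 0.126 CPM in IgG animals (SD, n = 4 each). Oscar was thus the gene of the set with the higher mean in antibody animals, with IgG animal 1 inside the antibody range, and at so few counts no difference could be resolved. Calcr (chromosome 6, 3635720 to 3714713, minus strand), the calcitonin receptor that marks mature osteoclasts, had 1, 0, 1 and 1 counts in antibody animals 1 to 4 and 4, 0, 0 and 4 counts in IgG animals 1 to 4. The 0 counts allow a level of up to 0.105 CPM in antibody animal 2 and up to 0.138 and 0.108 CPM in IgG animals 2 and 3 (3 counts per library, counting error only). A defining marker of the mature osteoclast was therefore at or near 0 in every library, and no fold change is given for it.

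Nfatc1 (chromosome 18, 80802944 to 80909810, minus strand), the transcription factor at the centre of the programme, had 55.8, 51.1, 53.3 and 51.0 CPM in antibody animals 1 to 4 and 47.8, 66.2, 55.8 and 59.2 CPM in IgG animals 1 to 4. The antibody animals lay close together inside the IgG range. The log2 fold change was -0.12 ± 0.11 with a 95% interval of -0.37 to 0.14, the narrowest of the 7. NFATc1 is controlled in part after translation, by calcineurin, which these counts do not measure.

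Dcstamp (chromosome 15, 39577476 to 39592484, plus strand) encodes a membrane protein with several transmembrane stretches that mouse osteoclasts and foreign-body giant cells need for fusion. It had 1.27, 2.17, 2.01 and 2.02 CPM in antibody animals 1 to 4, from 26, 62, 46 and 50 counts. In IgG animals 1 to 4 it had 8.28, 5.95, 22.4 and 16.1 CPM, from 242, 129, 622 and 478 counts. Every IgG animal was above every antibody animal, and the IgG animals also differed among themselves, by 3.77-fold from lowest to highest against 1.71-fold in antibody animals. The coefficient of variation was 21.8% in antibody and 57.1% in IgG animals. The fitted level was 7.02-fold lower in antibody animals, a log2 fold change of -2.81 ± 0.42 (95% interval -3.75 to -1.87). With 1 animal left out it lay between -3.05 and -2.43. Among the 12051 genes that averaged at least 5 CPM over the 8 animals, 5 had a log2 fold change of -2 or lower. Dcstamp ranked 4 from the lowest there, and reached that average through the IgG animals, at 13.2 CPM against 1.87 CPM in antibody animals. Over all 15980 genes fitted, 18 lay below -2 and Dcstamp ranked 7 from the lowest. Its fold change served to choose it, so neither rank is evidence.

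Ocstamp (chromosome 2, 165220950 to 165225894, minus strand), which encodes a related membrane protein needed for the same fusion in mice, had 0.488, 0.491, 0.700 and 0.729 CPM in antibody animals 1 to 4 and 0.855, 0.646, 0.505 and 1.01 CPM in IgG animals 1 to 4. The groups overlapped, and IgG animal 3, the highest for Dcstamp, was the lowest of its group for Ocstamp. The log2 fold change was -0.33 ± 0.33 (95% interval -1.06 to 0.40), from 58 counts in all antibody libraries and 83 in all IgG libraries.

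Atp6v0d2 (chromosome 4, 19803985 to 19849713, minus strand) encodes the d2 subunit of the proton pump, which mouse osteoclasts need for fusion. It had 252, 247, 261 and 316 CPM in antibody animals 1 to 4 and 148, 260, 481 and 314 CPM in IgG animals 1 to 4. The antibody values lay within the IgG range, which spread 3.24-fold against 1.28-fold in antibody animals. The log2 fold change was -0.16 ± 0.30 (95% interval -0.83 to 0.51), and it was 0.16 without IgG animal 3. Its widely expressed paralogue Atp6v0d1 had 90.1 ± 2.61 CPM in antibody animals and 93.8 ± 17.7 CPM in IgG animals. Per exon length, Atp6v0d2 had 179, 172, 195 and 227% of the level of Atp6v0d1 in antibody animals 1 to 4 and 101, 244, 286 and 197% in IgG animals 1 to 4, so that the macrophage and osteoclast form was the more abundant in each animal, by a small margin in IgG animal 1.

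Acp5 (chromosome 9, 21931171 to 21940190, minus strand) encodes tartrate-resistant acid phosphatase, the enzyme stained to show osteoclasts and also made by activated macrophages. It had 114, 106, 136 and 122 CPM in antibody animals 1 to 4 and 83.5, 128, 167 and 144 CPM in IgG animals 1 to 4. The IgG animals stood in the order 3, 4, 2, 1, as they did for Atp6v0d2 and for the summed macrophage markers, whereas for Dcstamp the order was 3, 4, 1, 2. The log2 fold change of Acp5 was -0.13 ± 0.20 (95% interval -0.57 to 0.31), and it was 0.01 without IgG animal 3.

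**Figure D2:**
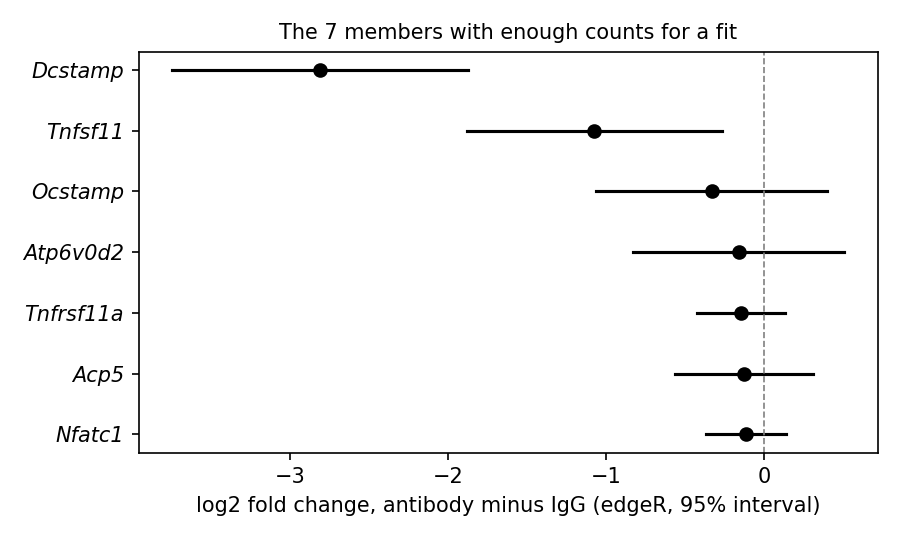
Fitted log2 fold changes, antibody minus IgG, with 95% intervals (horizontal axis) for the 7 genes with enough counts, n = 4 animals per group. Dcstamp lies at -2.81 and Tnfsf11 at -1.07, and the intervals of the other 5 genes span 0. Dcstamp was chosen by its fold change and Tnfsf11 passed the count filter through the IgG animals, so their intervals are descriptions only.

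Levels of different genes were compared per exon length, as CPM divided by exon length in kilobases (RPKM). Atp6v0d2 was the highest, at 107 ± 12.8 RPKM in antibody and 120 ± 55.3 RPKM in IgG animals (SD, n = 4 each), followed by Acp5 at 73.9 ± 8.08 and 80.8 ± 21.8 RPKM in antibody and IgG animals. Tnfrsf11a had 9.98 ± 1.19 RPKM in antibody and 11 ± 1.22 RPKM in IgG animals, and Nfatc1 had 7.11 ± 0.306 RPKM in antibody and 7.70 ± 1.03 RPKM in IgG animals. Within each of the 8 libraries these 4 genes stood in that order. Dcstamp had 0.910 ± 0.198 RPKM in antibody animals, below Nfatc1 in 4 of 4. In IgG animals it had 6.43 ± 3.67 RPKM, below Nfatc1 in 3 of 4 animals, so that those neighbours did not differ beyond their spread. Tnfsf11, at 0.239 ± 0.0935 and 0.511 ± 0.118 RPKM, and Ocstamp, at 0.308 ± 0.0667 and 0.386 ± 0.115 RPKM in antibody and IgG animals, were not separated from each other. Oscar, at 0.177 ± 0.0369 and 0.103 ± 0.0681 RPKM, lay below Ocstamp in every library, and Calcr below Oscar. Of the genes of the 2 fusion proteins, Dcstamp had the higher level per length in both groups, by a smaller margin in antibody animals.

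Macrophages are a known source of most of these transcripts, so their values were also set against macrophage markers of the same animal. All 11 macrophage markers had a log2 fold change below 0 (median -0.33), and their sum was 2520, 2510, 2360 and 3320 CPM in antibody animals 1 to 4 and 2120, 2930, 4630 and 3690 CPM in IgG animals 1 to 4. Dcstamp had 0.503, 0.866, 0.854 and 0.609 CPM per 1000 CPM of macrophage markers in antibody animals 1 to 4 and 3.91, 2.03, 4.85 and 4.37 in IgG animals 1 to 4. The groups did not overlap on this scale, and IgG animal 1, the lowest for macrophage markers, lay between the other IgG animals. With a macrophage score as a covariate the log2 fold change of Dcstamp was -2.26 and that of Tnfsf11 -0.80. Dcstamp was chosen by its fold change and the macrophage sums overlapped, so neither its separation nor its covariate value tests macrophage content. Acp5 had 45.5 ± 8.89 and 39.5 ± 3.14 CPM per 1000 CPM of macrophage markers in antibody and IgG animals, and Atp6v0d2 had 101 ± 6.85 and 86.9 ± 13.9 (SD, n = 4 each), with overlapping groups for both. Tnfrsf11a and Nfatc1 overlapped too, at 18.8 ± 1.73 and 20.1 ± 3.33 in antibody animals and at 17.5 ± 4.02 and 18.3 ± 5.18 in IgG animals. Dcstamp amounted to 0.503, 0.882, 0.770 and 0.640% of the Atp6v0d2 CPM in antibody animals 1 to 4 and to 5.58, 2.29, 4.67 and 5.14% in IgG animals 1 to 4. Of 9 dendritic cell markers, named here because Dcstamp was first described in those cells, 5 lay below 0. Their sums were 320 to 474 CPM in antibody animals and 196 to 582 CPM in IgG animals. Most of the mean sums of 396 and 374 CPM was Itgax, at 328 ± 65.8 CPM in antibody and 304 ± 159 CPM in IgG animals. The sums therefore describe mainly that gene.

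**Figure D3:**
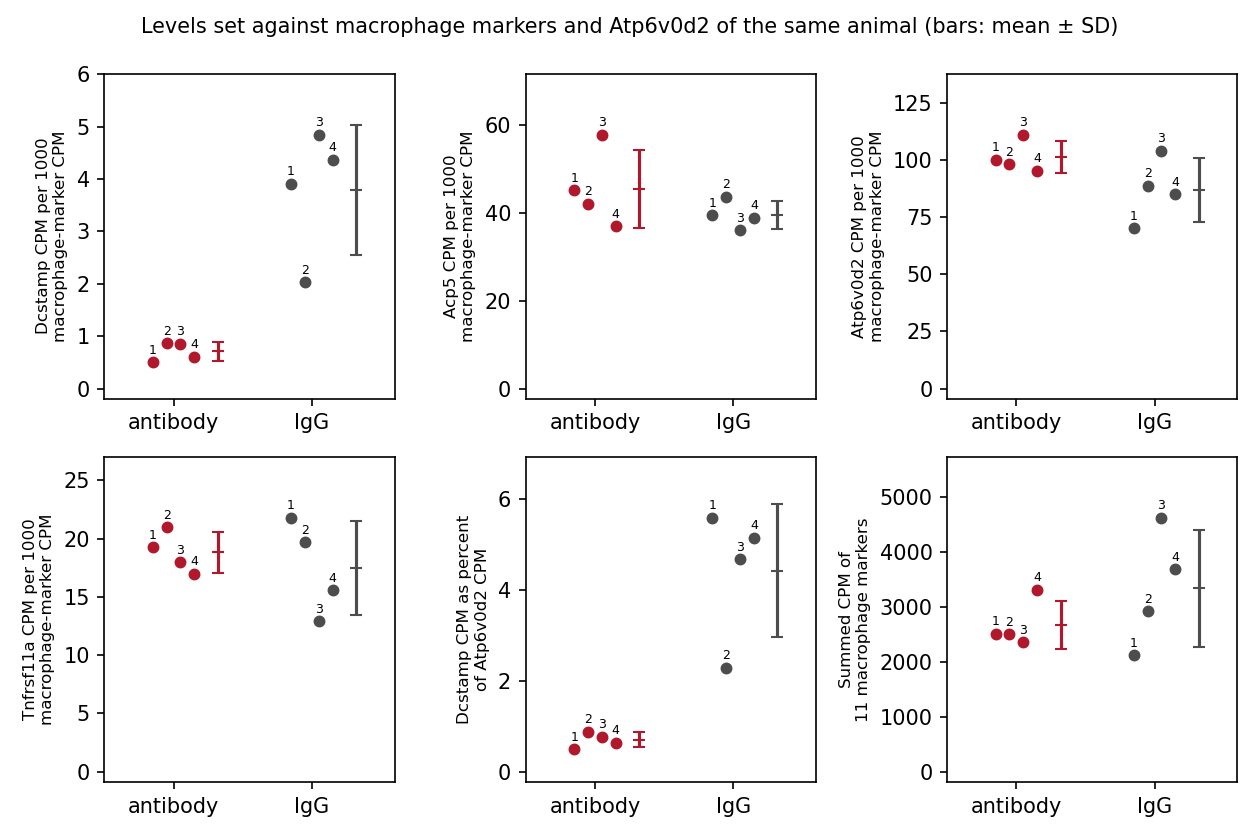
Dcstamp, Acp5, Atp6v0d2 and Tnfrsf11a per 1000 CPM of summed macrophage markers, Dcstamp as a percentage of Atp6v0d2, and the macrophage sum itself (vertical axes, linear), for 4 antibody and 4 IgG animals with numbers and mean ± SD. Both Dcstamp ratios separate the groups, at no more than 0.866 and 0.882 in antibody animals and no less than 2.03 and 2.29 in IgG animals, and the other 4 panels overlap. The Dcstamp ratios are descriptions, since Dcstamp was chosen by its fold change.

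Other genes of the pathway were read from 8 lists holding 119 genes besides the 9, of which 115 had enough counts. With edgeR 0 of the 115 passed an adjusted p of 0.05 in either direction (smallest adjusted p = 0.9997). The count below 0.05 before adjustment was 3 lower and 0 higher. That is 2.61% lower, against 2.06% lower and 1.13% higher over all genes tested, so the share is near the background. They were Lcp2, an adaptor downstream of immunoreceptors (-0.45 ± 0.12), Nfkb2, a subunit of the alternative NF-kB pathway (-0.36 ± 0.14), and Csf1r, the M-CSF receptor (-0.38 ± 0.15, SE). Lcp2 and the p38 kinase gene Mapk14 (-0.13 ± 0.09) were the 2 whose groups did not overlap, both lower in antibody animals. That is 1.74%, against 1.25% of all genes tested, again near the background. Log2 fold changes of the 115 ran from -0.63 (Ccl2) to 0.39 (Atp6v0e2), with 82 below 0 and a median of -0.10. Over all genes tested 52.3% lay below 0, with a median of -0.01, which is also the background for each list below. Genes of a list are not independent of each other, and no list was tested as a set.

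By list, 0 genes passed in each. The fusion machinery had 13 of 18 values below 0 (median -0.15), with the monocyte chemokine Ccl2 at -0.63 ± 0.36, its receptor Ccr2 at -0.57 ± 0.29 and the guanine exchange factor gene Dock5 at -0.16 ± 0.09. The osteoclast resorption apparatus had 8 of 14 below 0 (median -0.04). There the membrane protease Mmp14 had -0.38 ± 0.26, the integrin chain Itgb3 0.20 ± 0.14 and the creatine kinase Ckb 0.18 ± 0.13, and the collagen-cutting protease Ctsk had 172 ± 13 CPM in antibody and 162 ± 87.1 CPM in IgG animals. Of 19 fitted proton pump subunits 11 lay below 0 (median -0.03), with Atp6v1e1 at 0.23 ± 0.16, Atp6v0a4 at -0.40 ± 0.37 and Atp6v0a1 at 0.10 ± 0.11. Atp6v0c, the proteolipid subunit that every cell uses, had almost no counts, at 0.0473 CPM in antibody and 0.00855 CPM in IgG animals. Its level therefore cannot be read from these counts. Reads with several alignments are not counted, and whether that is the cause was not tested.

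RANK signalling and transcription factors had 21 of 24 below 0 (median -0.12), with Nfkb1 at -0.21 ± 0.11 and Fos, a part of AP-1, at -0.31 ± 0.19. Negative regulators of osteoclast formation had 8 of 11 below 0 (median -0.14), with the ubiquitin-editing enzyme Tnfaip3 at -0.26 ± 0.16, Socs3 at -0.37 ± 0.25 and the transcription factor Irf8 at -0.24 ± 0.17. All 12 genes of co-stimulation through immunoreceptors lay below 0 (median -0.28), among them the phospholipase Plcg2 at -0.33 ± 0.15 and the signalling chain Fcer1g at -0.39 ± 0.24. Calcineurin and calcium genes had 5 of 12 below 0 (median 0.01), with the calcium channels Itpr2 at 0.25 ± 0.19 and Itpr1 at 0.12 ± 0.14 and the calcium pump Atp2b1 at -0.18 ± 0.17. The M-CSF axis had 4 of 5 below 0 (median -0.14), with Csf1 at -0.12 ± 0.12 and the shared receptor chain Csf2rb at -0.19 ± 0.22. Macrophages express genes of the immunoreceptor co-stimulation and M-CSF lists, and Csf1r stands in both the M-CSF and the macrophage marker list. The macrophage markers, all 11 below 0 as given above, did not pass the test either, and their part in the values of those lists was not tested.

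**Figure D4:**
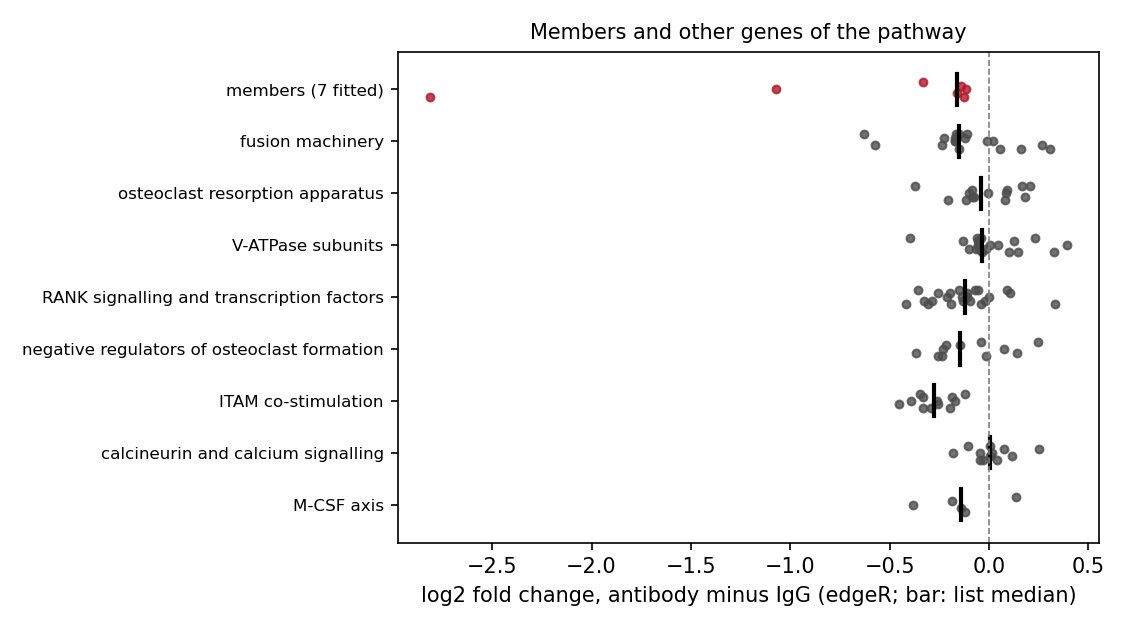
Fitted log2 fold changes, antibody minus IgG (horizontal axis), of the 7 fitted osteoclast and fusion genes in red and of 115 other pathway genes in 8 lists in grey, with the median of each list as a bar. Dcstamp and Tnfsf11 lie at -2.81 and -1.07, and the other pathway genes between -0.63 and 0.39.

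The genes whose log2 CPM followed Dcstamp most closely over the 8 libraries were Maf, Susd3, 1600002K03Rik, Kif20b and Clec4a2 (Pearson r = 0.96, 0.96, 0.96, 0.95 and 0.94). This is a description over 2 groups that themselves differ, in libraries that share depth and tissue makeup. Maf, a transcription factor of macrophages and other cells, had 45.7, 51.7, 45.2 and 47.6 CPM in antibody animals 1 to 4 and 59.4, 57.3, 64.0 and 66.0 CPM in IgG animals 1 to 4. Its span between groups was much smaller than that of Dcstamp, at 1.30-fold against 7.02-fold. Clec4a2, a lectin receptor of myeloid cells, had 6.06 ± 0.742 CPM in antibody and 9.41 ± 2.16 CPM in IgG animals. When the group means were removed, the closest were Rnf115, Zfand5, Srp72, Tmem168 and Dr1 (r = 0.99 or above for each), so that none of the 5 genes was shared with the first list. On the log2 scale the deviations of Dcstamp from its group means were -0.50, 0.24, 0.13 and 0.14 in antibody animals 1 to 4. In IgG animals 1 to 4 they were -0.48, -0.95, 0.95 and 0.48, so the IgG animals carry most of that likeness. Both lists were picked as the highest r among 15980 genes over 8 libraries, and picking the highest raises r.

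The 9 genes lie on 9 different chromosomes, and no exon of any of them overlaps an exon of another gene in the deposited table, so reads without strand cannot have been shared with a neighbour listed there.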

How the data were processed

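RNA from 8 lesions was sequenced, 4 per group, and each library is 1 animal, per the design text; groups came from the sample titles. The deposited values are raw counts per gene symbol: featureCounts 1.4.6-p4 summed reads on exons of the UCSC mm9 annotation for the authors, per the file headers, and its command shows no option for strand or read pairs. Alignments at several places are an unassigned class in the deposited status table, so near-identical copies are undercounted. The submitters' processing notes also name CASAVA, STAR 3.0, Subread and DESeq2. The deposited exon length gave RPKM.

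Genes were kept by filterByExpr (minimum count 10, minimum total 15), which left 15980 genes, scaled by TMM and fitted with the quasi-likelihood F-test of edgeR 4.0.16 (R 4.3.3, robust=TRUE, no covariate), with Benjamini-Hochberg adjustment over all of them and a threshold of 0.05. Fold changes are antibody over IgG. CPM uses TMM-scaled library sizes, and log2 CPM a prior count of 2. A gene can pass the filter through the group where it is high, as Tnfsf11 did. DESeq2 1.42.0 and limma 3.58.1 were alternatives. The 9 genes and all lists were chosen with earlier results of these data known. The genes named are the 9, the 3 with the smallest p per list, a paralogue, a decoy receptor, the 5 genes most like Dcstamp by each of 2 measures, and, chosen after their values were seen, Mapk14, Ctsk, Atp6v0c, Atp6v0e2, Ccl21a, Psmb11, Aire, Foxn1, Cxcl13, Cd79b, Itgax, Ibsp, Sost, Phex, Bglap and Bglap2. P-values test the difference between groups against the spread between animals. Intervals for single counts cover counting error only.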

Additional observations from a re-analysis of the deposited data

Results flagged for a closer look

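In 44 groups of 4 values, a sample lying apart from the other 3 was looked for by the gap to its nearest neighbour over the group's range; chance flags about 1 in 20 groups. There were 3. Tnfrsf11a in IgG animal 1 was 46.2 CPM, against 57.7 to 59.5 CPM in the other 3 IgG animals. Oscar in IgG animal 1 was 0.376 CPM, against 0.101 to 0.144 CPM in the other 3, a difference between 11 counts and 3 or 4. Calcr in antibody animal 2 was 0 CPM, against 0.0405 to 0.0488 CPM in the other 3, which is 0 counts against 1.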

How the results depend on the processing

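Each result was recomputed under 15 alternatives. The log2 fold change of Dcstamp stayed below 0 in all of them, between -3.12 (limma-voom) and -2.26 (macrophage score as a covariate), and between -3.05 and -2.43 with 1 animal left out. The number of genes past an adjusted p of 0.05 was 0 with edgeR, 9 with DESeq2 and 2 with limma-voom with quality weights, and 0 to 1 with 1 animal left out; for the 115 pathway genes it was 0 throughout. The genes at an unadjusted p under 0.05 were 509, and 2762 with limma-voom, 1517 without IgG animal 1, 783 without antibody animal 2, 336 without antibody animal 3 and 310 without IgG animal 4. With the macrophage score as a covariate Atp6v0d2 was at 0.38 and Acp5 at 0.14, and Atp2b1 (0.015), Csf2rb (0.078), Mmp14 (0.057) and Socs3 (0.057) changed sign; none of these passed the test in either fit, and the cause was not tested. The number of fitted genes of the set below 0 was 7, and 5 to 7 with 1 animal left out. The groups share the numbers 1 to 4. Deviations of same-numbered animals had correlations of 0.29, -0.34, -0.13 and 0.00, and 1 of 4 antibody libraries was closest to the IgG library of its own number. No pairing by number was seen, though so few values cannot exclude it. With the replicate number as a block, Dcstamp was at -2.66, 0 genes passed and 361 had an unadjusted p under 0.05. Oscar, Calcr, Ocstamp and Tnfsf11 are limited by their counts.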
